A study of Mus musculus with 83 samples.

Results

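The 9 genes Rimbp2, Rims1, Rims2, Rims3, Bsn, Pclo, Unc13a, Erc1 and Erc2, which encode scaffold and priming proteins of the presynaptic active zone, were taken by symbol from a table of raw counts for 48795 mouse genes. All 9 were found and all 9 had counts in every library, with a lowest value of 69 counts (Erc1) and a highest of 63271 (Pclo). The libraries came from pools of 125 neurons cut by laser from 14 µm sections of frontal cortex of male C57BL/6 mice, old (22 months) or young (2 months). Pyramidal cells (PYC) and interneurons with parvalbumin (PV), somatostatin (SST) or vasoactive intestinal peptide (VIP) were picked after staining for Slc17a7, Pvalb, Sst or Vip. There were 12 old libraries of each type, 9 young libraries each of PYC, SST and VIP and 8 of PV, 83 in all, and the series names 12 old and 9 young mice without tying a library to one of them. All mice were of one strain, and the labels give no transgene and no treatment.

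The active zone is the patch of presynaptic membrane at which vesicles dock, are made ready for fusion and release transmitter when calcium enters. RIM proteins (Rims1 and Rims2) link vesicles to calcium channels and recruit the priming factor Munc13-1 (Unc13a), RIM-binding protein 2 (Rimbp2) joins RIMs to the channels, ELKS proteins (Erc1 and Erc2) bind RIMs, and the very large proteins Bassoon (Bsn) and Piccolo (Pclo) form the cytomatrix. Rims3 encodes RIM3, a short member of the RIM family that keeps only the C-terminal domain of the longer ones.

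Library totals ran from 1.46 to 27.2 M counts, and levels are given in CPM, the usual count scaled to the library total. In 6 libraries the mitochondrially encoded genes took under 3% of counts: 1 old and 2 young VIP libraries, 1 old and 1 young PYC library and 1 young SST library. The summed level of the 9 genes was above the median of the other libraries of the same group in all 6, with 11182 CPM against 5879 CPM in the young PYC library and 7930.0 CPM against 5579 CPM in the old one. Rims2 did the opposite in 3 of the 6, all young (1 PYC and 2 VIP), where it was below every other library of its group. Some results are therefore also given without all 6 or without 1 of them. The interneuron markers summed to more for the labelled type than for either other interneuron type in all but 2 of the interneuron pools. In old VIP libraries 9 and 11 the 7 SST markers summed to 2004 and 2191 CPM and the 8 VIP markers to 1315 and 1701 CPM, while the SST markers summed to 198 to 530 CPM in the other 19 VIP pools. Library 11 is also the old VIP library with few mitochondrial counts, and some of the VIP values are also given without libraries 9 and 11. The 10 pyramidal markers summed to 2970 to 5971 CPM in PYC pools, against 2190 to 4439 CPM in VIP, 1494 to 2595 CPM in SST and 918 to 2389 CPM in PV pools. Of these 10 markers Emx1 was at 0 in 28 of the 83 libraries, Fezf2 in 4 and Neurod6 in 1, and the other 7 in none.

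By CPM, which is not corrected for length, the 9 genes lay between the 90.5th (Erc1) and the 99.9th (Bsn) percentile of genes with enough counts. Their exons cover 7.36 kb (Rims1) to 22.5 kb (Pclo), and no percentile per kilobase was computed. Compared per kilobase of exon, the cytomatrix genes led: Bsn averaged 95.3 ± 28.6 and Pclo 64.6 ± 16.5 CPM per kb (SD, n = 83 libraries). Unc13a (44.6 ± 14.9), Rims1 (43.6 ± 17.1) and Rimbp2 (37.5 ± 21.6) followed on the same scale. Rims3 (27.8 ± 13.6), Erc2 (26.4 ± 14.1) and Rims2 (19.5 ± 6.27) were lower. Erc1 was lowest, at 6.05 ± 2.86 CPM per kb, below its paralog Erc2 in 81 of 83 libraries by counts. Neighbours in this order, such as Unc13a and Rims1 or Rims3 and Erc2, lay within each other's SD.

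Type differences were then tested, each type against the mean of the other 3, across 9604 genes at or above the median abundance. PYC pools had more Rimbp2, Bsn, Erc2 and Unc13a, and none of the 9 genes was called lower there. Of the 9 genes 4 were called higher in PYC, where 9.10% of all genes tested were called higher and 7.28% lower. PV pools stood at the other end: 8 of the 9 genes were called lower and none higher, where 10.8% of all genes were called lower and 11.4% higher. The median log2 fold change of the 9 genes was 0.20 in PYC and -0.37 in PV, beside -0.025 and 0.0079 for all genes. In SST pools 2 genes were called higher (4.40% of all genes) and 2 lower (2.87%), and in VIP pools 2 higher (5.50%) and 1 lower (6.13%). The lower one in VIP was Bsn (-0.17, edgeR adjusted p = 0.0369), a call that was lost in 71 of 83 fits that left out 1 library. It was also lost without the 2 old VIP libraries with high SST markers (-0.17), and Pclo then passed in PYC (0.19, adjusted p = 0.0313). A lower level in a pool can come from fewer neurons that express a gene or from less RNA in each, which bulk counts cannot tell apart.

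**Figure D1:**
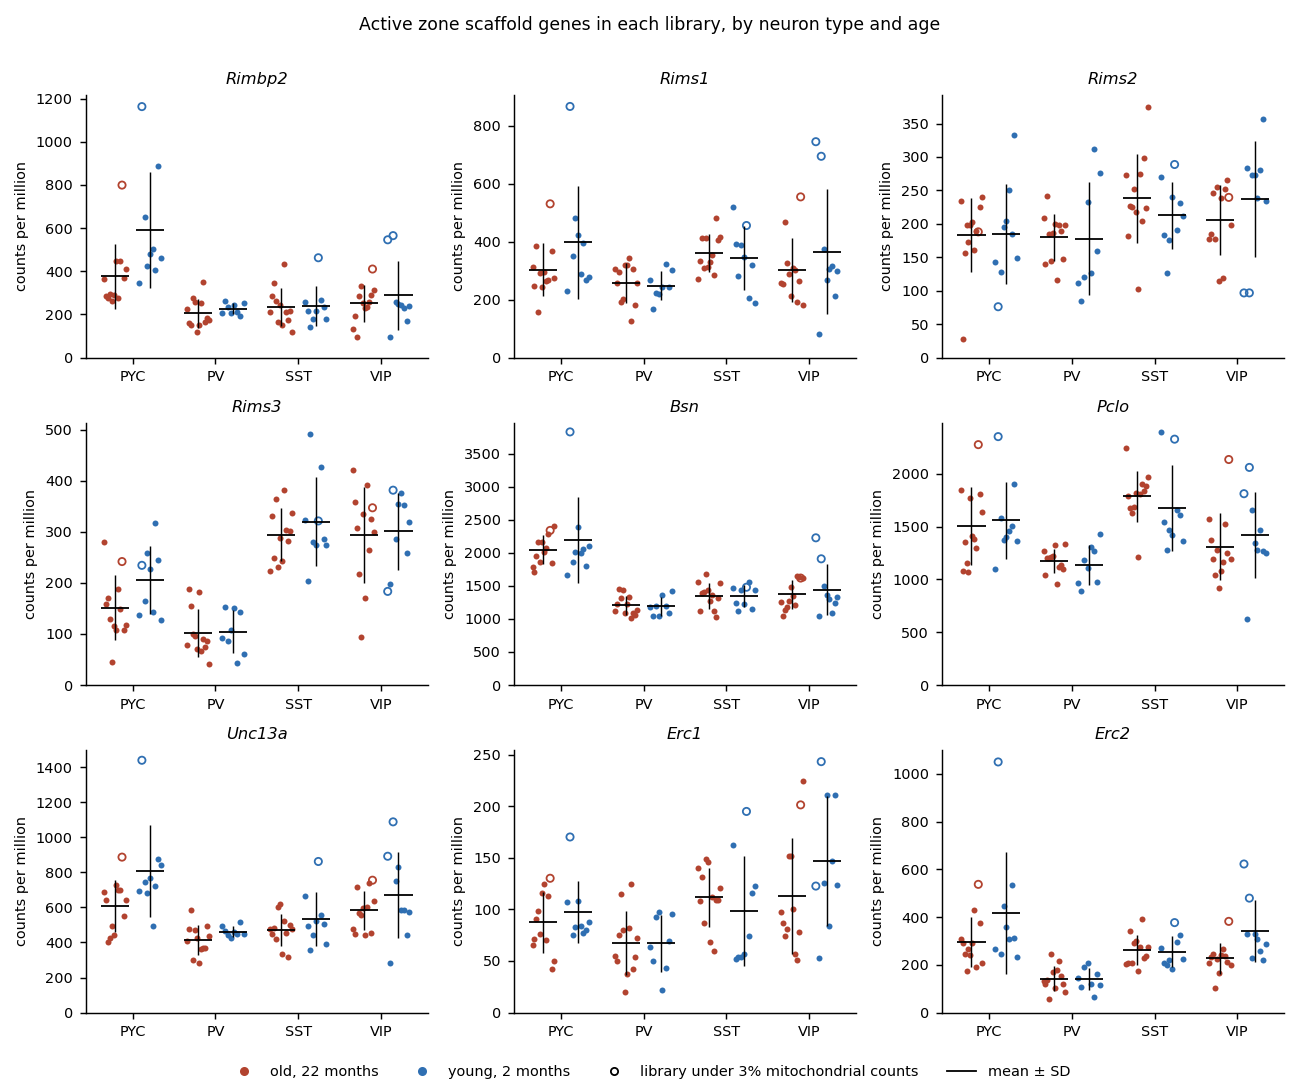
Level in CPM (linear axis) of each of the 9 genes in all 83 libraries, by neuron type, with old libraries left and young libraries right within a type, black lines for mean ± SD and open circles for the 6 libraries with under 3% mitochondrial counts. Bsn separates PYC from the other types most clearly, and the open circles are often the highest of their group.

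Bsn, the Bassoon gene (chromosome 9, 108096022 to 108190384, minus strand, GRCm38), separated PYC from the interneurons more than any other member by adjusted p. It ran between 1658 and 3829 CPM with a median of 2015 CPM in 21 PYC pools. In 20 PV pools it ran between 1010.2 and 1446 CPM (median 1186), in 21 SST pools between 1024 and 1680.0 CPM (median 1397) and in 21 VIP pools between 1039 and 2227 CPM (median 1336). Of the 62 interneuron pools 59 lay below the lowest PYC pool, and 5 PYC pools lay above every interneuron pool, so that the groups overlapped by a few libraries. The log2 fold change in PYC over the other types was 0.72 ± 0.056 (SE; edgeR quasi-likelihood test, adjusted p = 1.23e-20). Without young PYC library 2 it was 0.66. Pair by pair, Bsn was higher in PYC than in PV (0.78 ± 0.073), SST (0.71 ± 0.071) and VIP (0.67 ± 0.071), while the 3 interneuron types did not pass the test against each other. The largest of those differences was -0.11 ± 0.072 (PV over VIP).

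Rimbp2 (chromosome 5, 128757791 to 128953486, minus strand) had the largest fold of the 9 genes in PYC. It ran between 261 and 1163 CPM with a median of 411 CPM in PYC pools, against 118 to 352 CPM (median 209) in PV, 116 to 463 CPM (median 215) in SST and 94.7 to 565 CPM (median 249.7) in VIP pools. The groups overlapped, with 46 of 62 interneuron pools below the lowest PYC pool. The log2 fold change was 1.01 ± 0.11 (SE; edgeR, adjusted p = 2.71e-12) against the other types, and 1.08 ± 0.15 against PV, 1.05 ± 0.15 against SST and 0.89 ± 0.15 against VIP. Without the 6 libraries with few mitochondrial counts it was 0.96. In old libraries alone the fold was 0.75 and in young libraries alone 1.27.

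Erc2 and Unc13a completed the PYC group. Erc2, an ELKS gene (chromosome 14, 27622428 to 28478537, plus strand), ran between 174 and 1049.6 CPM (median 291) in PYC pools, against 57.8 to 244 CPM (median 134) in PV, 176 to 390 CPM (median 238) in SST and 104 to 622 CPM (median 241) in VIP pools. Unc13a (chromosome 8, 71624417 to 71671757, minus strand), whose product makes vesicles ready for fusion, ran between 402 and 1440.3 CPM (median 696) in PYC pools, against 280.4 to 586 CPM (median 447) in PV, 319 to 862 CPM (median 481) in SST and 280.4 to 1089 CPM (median 588) in VIP pools. For both genes every other type overlapped PYC, and PV had the lowest median. Against the other types Erc2 was higher in PYC by 0.73 ± 0.12 (adjusted p = 1.86e-07) and Unc13a by 0.48 ± 0.084 (adjusted p = 2.21e-06) on the log2 scale in edgeR. Without young PYC library 2 the values were 0.59 for Erc2 and 0.42 for Unc13a. PYC did not pass the test against VIP for either gene, with intervals of 2 SE of 0.12 to 0.70 for Erc2 and 0.044 to 0.46 for Unc13a, and adjusted p of 0.0512 and 0.115.

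Some counts of Unc13a may belong to the protein-coding gene Colgalt1 on the opposite strand, since the exons of the pair overlap by 495 bases and the strand setting of the counting is not given. Colgalt1 itself had 14487 counts over all libraries. Exons of Pclo, Erc1, Erc2 and Rimbp2 overlap antisense genes by 34 bases (Rimbp2) to 1919 bases (Erc1), each with at most 1744 counts in all.

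**Figure D2:**
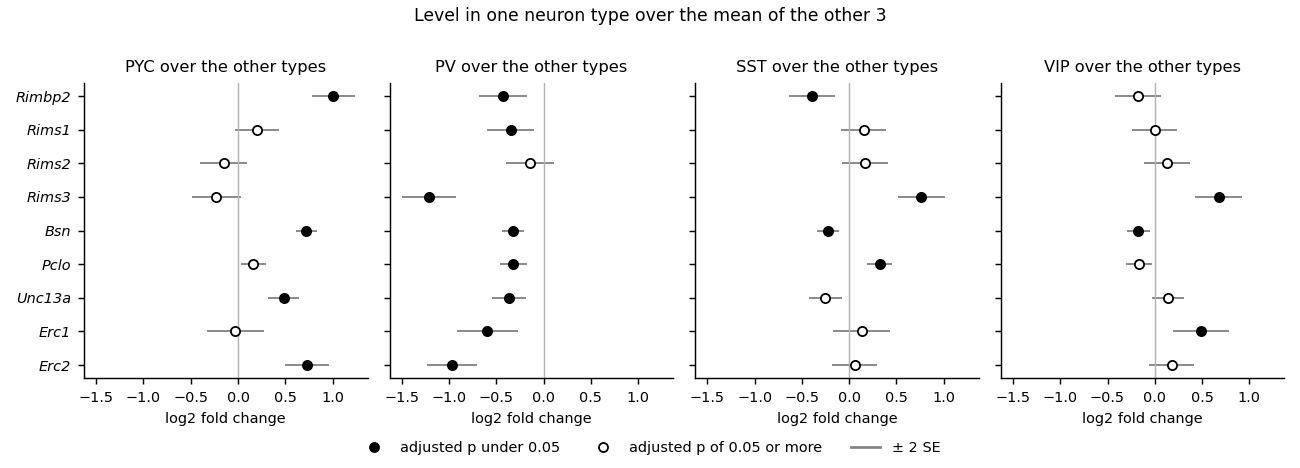
Log2 fold change (horizontal axis) of each of the 9 genes in 1 neuron type over the mean of the other 3, averaged over old and young libraries, with bars of ± 2 SE; filled points passed an adjusted p of 0.05. In PYC 4 genes lie right of 0 with filled points, and in PV all 9 lie left of 0, 8 of them filled.

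Pclo, the partner of Bsn in the cytomatrix (chromosome 5, 14514918 to 14863459, plus strand), had another order. It was highest in SST pools, with 1214 to 2397 CPM (median 1688), against 1066 to 2353 CPM (median 1408) in PYC, 892 to 1432 CPM (median 1194) in PV and 624 to 2136 CPM (median 1276) in VIP pools. The ranges overlapped throughout, with 24 of 62 other pools below the lowest SST pool. SST over the other types gave a log2 fold change of 0.32 ± 0.066 (edgeR, adjusted p = 0.00016) and PV one of -0.32 ± 0.070 (adjusted p = 0.000177). SST did not pass the test against PYC, with a PYC over SST difference of -0.12 ± 0.082. PYC was higher than VIP by 0.25 ± 0.082 (adjusted p = 0.0347), which did not pass with RLE size factors (adjusted p = 0.142) or with limma-voom (0.0889).

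Within each library the 2 cytomatrix genes can be set against each other without a scaling step. The log2 ratio of Bsn to Pclo counts averaged 0.47 in PYC, 0.047 in PV, -0.36 in SST and 0.067 in VIP pools. Bsn had the larger count in 19 of 21 PYC pools, 10 of 20 PV pools, 2 of 21 SST pools and 12 of 21 VIP pools. Old and young PYC pools had close mean ratios, 0.47 and 0.48. These ratios are descriptive and were not tested.

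**Figure D3:**
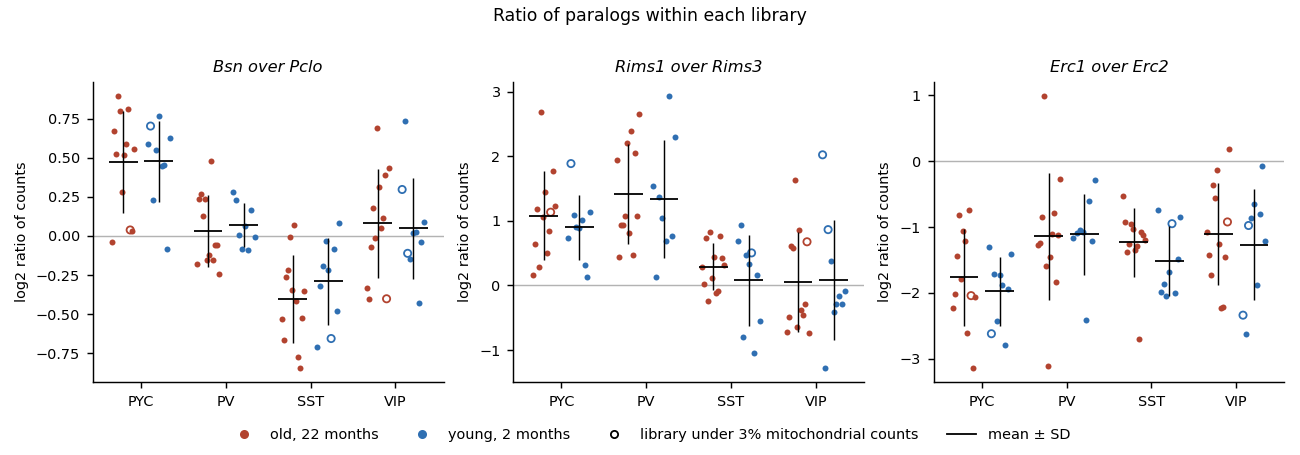
Log2 ratio of the counts of 2 related genes within each library (vertical axis, pseudocount 1), by neuron type with old left and young right, black lines for mean ± SD and open circles for libraries with under 3% mitochondrial counts. Bsn over Pclo is mostly above 0 in PYC and mostly below 0 in SST, and Rims1 over Rims3 is above 0 in all PYC and PV pools.

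Rims3 (chromosome 4, 120854816 to 120896579, plus strand) divided the interneurons. It ran between 203 and 491 CPM (median 288) in SST pools and between 93.3 and 421 CPM (median 318) in VIP pools. In PYC pools it ran between 45.4 and 316 CPM (median 159), and in PV pools between 40.4 and 189 CPM (median 91.0). All 21 SST pools lay above all 20 PV pools, while SST and VIP overlapped. SST was higher than the other types by 0.76 ± 0.12 (adjusted p = 1.03e-06), VIP by 0.68 ± 0.12 (adjusted p = 1.37e-05), and PV was lower (-1.21 ± 0.14, adjusted p = 1.01e-11) on the log2 scale in edgeR. All pairs of types passed the test except SST against VIP (0.065 ± 0.16), with PV lower than SST (-1.48 ± 0.16), which was the largest pairwise difference of the 9 genes.

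The long RIM genes varied less between types. Rims1 (chromosome 1, 22286251 to 22805994, minus strand) had medians of 292 CPM in PYC, 256 in PV, 346 in SST and 299 in VIP pools, and its full range over the 83 libraries was 81.0 to 866 CPM. It was called in PV alone, where it was lower (-0.35 ± 0.12, adjusted p = 0.0301), and this did not pass without the 6 libraries with few mitochondrial counts (-0.22). Rims2 (chromosome 15, 39198261 to 39684372, plus strand) was not called in any type or pair, with medians of 189.6 CPM in PYC, 186 in PV, 225 in SST and 239 in VIP pools and type folds of -0.15 to 0.17 on the log2 scale, each with an SE of 0.12 or 0.13. The log2 ratio of Rims1 to Rims3 averaged 1.003 in PYC and 1.39 in PV pools, against 0.20 in SST and 0.067 in VIP pools. Rims1 had the larger count in all 21 PYC and all 20 PV pools, in 15 of 21 SST pools and in 8 of 21 VIP pools.

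Erc1 (chromosome 6, 119570796 to 119848167, minus strand), the less abundant ELKS gene, had medians of 83.5 CPM in PYC, 66.6 in PV, 109 in SST and 123 in VIP pools, and 5 VIP pools lay above every other pool. VIP was higher than the other types by 0.49 ± 0.15 (adjusted p = 0.0148) and PV lower (-0.60 ± 0.16, adjusted p = 0.00284) in edgeR, while PYC differed by -0.027 ± 0.15. The log2 ratio of Erc1 to Erc2 averaged -1.86 in PYC pools, against -1.13 in PV, -1.35 in SST and -1.17 in VIP pools. With 1 old PV and 1 old VIP library as exceptions, Erc2 had the larger count.

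Over the 6 pairs of types, 25 of 54 comparisons of the 9 genes were called. PYC and PV differed in 7 of the 9 genes, all higher in PYC, where 21.4% of all genes differed. PYC and SST differed in 5 (12.8%), with Rimbp2, Bsn, Unc13a and Erc2 higher and Rims3 lower in PYC, and PYC and VIP in 4 (11.2%), with Rimbp2, Bsn and Pclo higher and Rims3 lower in PYC. PV was lower than SST for Rims3, Pclo, Erc1 and Erc2 (4 of 9, 12.2% of all genes) and lower than VIP for Rims3, Unc13a, Erc1 and Erc2 (4 of 9, 20.5%). SST against VIP gave a single call, Pclo, higher in SST by 0.37 ± 0.082 (6.45% of all genes).

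These 25 calls were refitted with RLE size factors, the wider filter, limma-voom, each covariate, and without the libraries with few mitochondrial counts or high SST markers. They were not refitted in old or young libraries alone, with DESeq2 or with single libraries left out. Of the 25 calls 4 did not pass under some of the settings used. They were Rims1 between PYC and PV, Erc2 between PYC and SST, Pclo between PYC and VIP, and Erc1 between PV and SST. The calls of Rims1, Erc2 and Erc1 did not pass without the 6 libraries with few mitochondrial counts, with log2 differences of 0.28, 0.36 and -0.48. The order of the summed pyramidal markers over the types (PYC, VIP, SST, PV) was also that of the medians of Rimbp2, Unc13a and Erc2. These are 3 of the 4 genes called higher in PYC. Camk2a weighs most in that sum, with a median of 1739 CPM over 83 libraries, against 399 CPM for Slc17a7 and less for each other marker. The part of neighbouring pyramidal transcripts in the values of the 3 genes was not tested.

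The promoters of 3 of the genes are shown. Bsn and Rimbp2 were higher in PYC than in each other type, while Rims3 was called higher in SST and VIP pools. Each window covers 250 bases before and 50 after the gene start in RefSeq (GRCm38.p6), with every CG dinucleotide in capitals. Rimbp2 lies at chr5:128953437-128953736 (minus strand), Bsn at chr9:108190334-108190633 (minus strand) and Rims3 at chr4:120854549-120854848 (plus strand).
Bsn: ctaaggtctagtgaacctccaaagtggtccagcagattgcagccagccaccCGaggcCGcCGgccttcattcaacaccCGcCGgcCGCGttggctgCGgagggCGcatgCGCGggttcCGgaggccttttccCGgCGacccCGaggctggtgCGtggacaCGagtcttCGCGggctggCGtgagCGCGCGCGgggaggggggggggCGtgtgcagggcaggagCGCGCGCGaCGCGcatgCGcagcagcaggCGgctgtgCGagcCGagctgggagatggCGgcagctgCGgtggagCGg
Rimbp2: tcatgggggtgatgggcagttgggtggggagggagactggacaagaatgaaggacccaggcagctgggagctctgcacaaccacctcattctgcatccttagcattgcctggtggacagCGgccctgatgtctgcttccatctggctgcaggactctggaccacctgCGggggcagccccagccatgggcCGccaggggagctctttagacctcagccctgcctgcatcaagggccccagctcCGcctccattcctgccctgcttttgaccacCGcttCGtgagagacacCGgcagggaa
Rims3: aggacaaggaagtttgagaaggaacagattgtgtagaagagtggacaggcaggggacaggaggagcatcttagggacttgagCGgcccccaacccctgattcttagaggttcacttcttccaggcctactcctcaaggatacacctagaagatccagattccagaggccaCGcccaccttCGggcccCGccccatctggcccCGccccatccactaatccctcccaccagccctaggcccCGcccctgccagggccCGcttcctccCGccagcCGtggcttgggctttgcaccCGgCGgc
Bsn held 38 CG dinucleotides, at the 95.6th percentile of 32851 windows, while Rimbp2 held 7, which is the median of all windows, and Rims3 held 11. Of the 8 members that matched (all but Rims2), the other 5 held 26 (Rims1) to 46 (Erc1) CG dinucleotides. The GC box GGGCGG, searched on both strands, was in 6 of the 8 windows (Rims1, Rims3, Pclo, Unc13a, Erc1 and Erc2) and in 35.7% of all windows. The letters TGACGTCA were in none of the 8 (1.79% of all windows), GCGNGGGCG in 2 (5.55%) and CAGATG in 3 (17.2%).

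Age was compared within each type, old over young. None of the 9 genes passed the adjusted test in any type, and neither did any other gene in edgeR (0 of 12508 genes in PYC, 12564 in PV, 12805 in SST and 12337 in VIP, so 0% called). Without adjustment, 364, 291, 368 and 368 genes in these 4 types had a p under 0.05. DESeq2 called 0, 2, 1 and 0 genes and limma-voom with quality weights 2, 2, 1 and 0, none of the 9 among them. The age values are thus descriptions of these pools and not changes.

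In PYC pools all 9 genes had a negative estimate, with a median log2 fold change of -0.38 beside 0.0031 for all genes tested. Rimbp2, whose earlier result in PYC was known when the genes were chosen, had the lowest. It ran between 261 and 799 CPM with a median of 329.7 CPM in 12 old PYC pools, against 345 to 1163 CPM with a median of 481 CPM in 9 young PYC pools. The groups overlapped, with 6 old pools below every young pool and 11 of 12 old pools below the young mean. The log2 fold change was -0.65 ± 0.19 (SE; edgeR unadjusted p = 0.00127, the 7th smallest of 12508 genes, adjusted p = 0.9998). Over the other settings the adjusted p ran between 0.0101 and 1. The 0.0101 came from the edgeR fit without a filter on low counts, where 6505 of 31951 genes were called in PYC. In the edgeR fit of all 8 groups the adjusted p was 0.109, and with DESeq2 it was 0.601. The log2 fold change was -0.60 without the libraries with few mitochondrial counts and between -0.77 and -0.47 when single libraries were left out.

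Erc2 and Unc13a were next in PYC by p. Erc2 ran between 174 and 537 CPM (median 277) in old PYC pools, against 233 to 1049.6 CPM (median 310.2) in young ones, and the groups overlapped, with 3 old pools below every young pool. Its log2 fold change was -0.48 ± 0.22 (unadjusted p = 0.0314 in edgeR), but -0.19 without young PYC library 2, which holds the value of 1049.6 CPM. Unc13a ran between 402 and 887 CPM (median 642) in old PYC pools, against 496 to 1440.3 CPM (median 746) in young ones, with 4 old pools below every young pool. Its log2 fold change was -0.40 ± 0.15 (unadjusted p = 0.0138), and -0.26 without the same library. Of the 9 genes 3 thus had an unadjusted p under 0.05 in PYC, where 2.91% of all genes did. The genes were chosen with earlier results of these data known, so this share is no test of the 9 genes.

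The RIM genes and the cytomatrix genes in PYC followed with wider intervals or smaller values. Rims3 had a median of 139 CPM in old and 227 CPM in young PYC pools, and a log2 fold change of -0.42 ± 0.23. Rims1 had medians of 284 and 350.2 CPM in old and young PYC pools and a fold of -0.38 ± 0.19, but -0.16 without young PYC library 2. Rims2 (-0.031 ± 0.23) and Erc1 (-0.16 ± 0.24) had intervals of 2 SE that cover 0 widely. For the 2 most deeply counted genes the intervals were narrow: Bsn had medians of 2045 CPM in old and 2011 CPM in young PYC pools (-0.088 ± 0.11, interval -0.31 to 0.13), and Pclo 1395 and 1458 CPM (-0.047 ± 0.12, interval -0.29 to 0.19). Without young PYC library 2 the values were 0.042 for Bsn and 0.037 for Pclo. With all 6 libraries of few mitochondrial counts left out, 8 of the 9 estimates in PYC were negative, and Bsn was at 0.039.

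**Figure D4:**
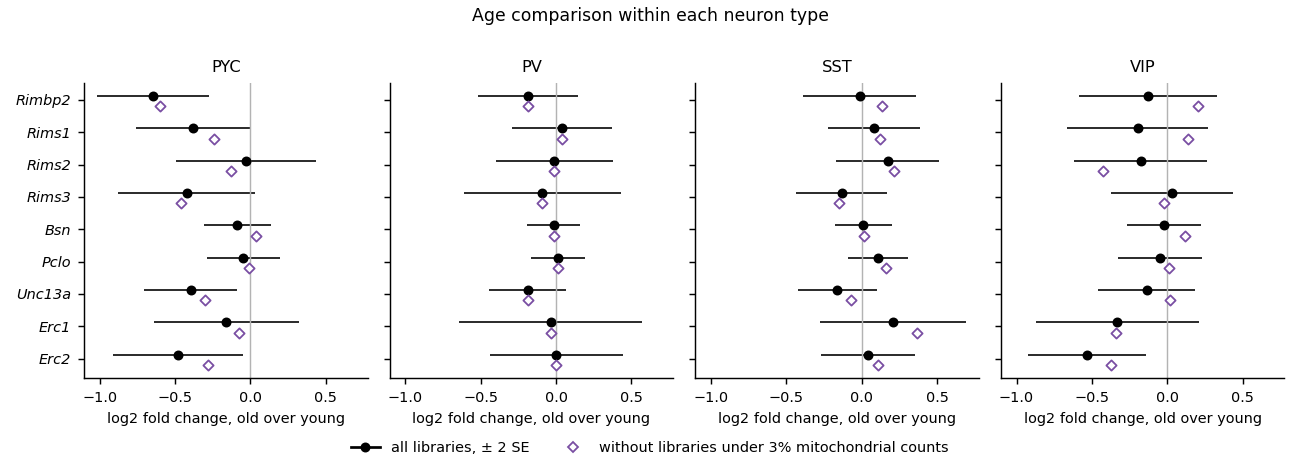
Log2 fold change of old over young pools (horizontal axis) for each of the 9 genes within each neuron type; black points with bars of ± 2 SE use all libraries and open diamonds leave out the 6 libraries with under 3% mitochondrial counts (PV has none, so its points coincide). All 9 black points in PYC lie left of 0, and those in PV and SST lie on both sides.

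In PV pools 6 of 9 were negative with a median of -0.015, between -0.19 ± 0.13 (Unc13a) and 0.037 ± 0.17 (Rims1), and none had an unadjusted p under 0.05 (2.32% of all genes). In SST pools 3 of 9 were negative with a median of 0.042, between -0.16 ± 0.13 (Unc13a) and 0.21 ± 0.24 (Erc1), again with none under 0.05 (2.87%). In VIP pools 8 of 9 were negative with a median of -0.14, but 4 of 9 without the libraries with few mitochondrial counts. None of the SST or VIP markers passed the adjusted age test in VIP pools. All 7 SST markers had a positive estimate there, with a median log2 fold change of 0.93, and 2 of them had an unadjusted p under 0.05. The 8 VIP markers had a median of -0.29. The SST markers summed to 205 to 2191 CPM in old VIP pools, against 198 to 507 CPM in young ones. Without old VIP libraries 9 and 11 that sum averaged 345 CPM in old VIP pools, against 360 CPM in young ones. Of the 9 genes, 8 again had a negative estimate without those 2 libraries.

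Rimbp2, lowest in PYC, had log2 fold changes of -0.18 ± 0.17 in PV, -0.014 ± 0.19 in SST and -0.13 ± 0.23 in VIP pools. It ran between 118 and 352 CPM (median 179) in old PV pools, against 192 to 264 CPM (median 223) in young ones. Old and young SST pools both had a median of 215 CPM, and old VIP pools had one of 256 CPM, against 245 CPM in young VIP pools. Old and young pools overlapped in each of these types.

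The lowest estimate outside PYC was that of Erc2 in VIP pools, the only one there with an unadjusted p under 0.05 (2.98% of all genes). Erc2 ran between 104 and 382 CPM (median 229) in old VIP pools, against 222 to 622 CPM (median 309) in young ones. The groups overlapped, with 5 old pools below every young pool and 2 young pools above every old pool, and those 2 are the young VIP libraries with few mitochondrial counts. The log2 fold change was -0.53 ± 0.20 (unadjusted p = 0.00936, adjusted p = 0.9996 in edgeR) and -0.37 without such libraries, and it was -0.62 without the 2 old VIP libraries with high SST markers, with adjusted p between 0.0616 and 1 over the other settings.

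A difference between types in the age effect was tested directly, with an interaction of age and type. None of the 9 genes passed (adjusted p = 0.9996 for each), nor did any of the 9604 genes (0%), and 2.50% of all genes had an unadjusted p under 0.05. The smallest unadjusted p among the 9 was 0.109 (Erc2), followed by 0.167 (Rimbp2). The values in PYC are thus not shown to differ from those in the interneurons.

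The 9 genes were compared with each other over the 83 libraries, as a description, since libraries of one type and of like depth share their levels. The 6 libraries with few mitochondrial counts were included, and r was not computed without them. Of 36 pairs 29 had a positive Pearson r of log2 CPM, with a median of 0.32, and 27 had one after the mean of each group was subtracted, with a median of 0.22. The pair with the highest r was Rimbp2 and Bsn (0.69), and with group means subtracted it was Rims1 and Pclo (0.58). Rims2 had a negative r with 5 of the other 8 genes, the lowest with Rimbp2 (-0.27), and a positive one with Rims3 (0.062), Pclo (0.14) and Erc1 (0.072). After subtraction its r was positive with Pclo alone (0.087) and lowest with Bsn (-0.30). Outside the 9 genes, Kalrn, which encodes a guanine nucleotide exchange factor known from dendritic spines, had the highest r with Bsn (0.82), Rimbp2 (0.69), Unc13a (0.69) and Erc2 (0.71). Rims3 was most like Slc24a3 (0.71), Pclo like Ryr2 (0.58), Rims1 like Plekha6 (0.58), Erc1 like Myt1l (0.55) and Rims2 like Zfp654 (0.48). With group means subtracted, Rimbp2 was most like Trank1 (0.60) and Tspoap1 (0.57), a gene that encodes another RIM-binding protein, and Bsn like Shank1 (0.67), a scaffold gene of the postsynaptic side.

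Other presynaptic gene lists showed which type differences were shared. In PV pools 11.4% of all genes tested were called higher and 10.8% lower. The low levels in PV extended to calcium channel subunits, with 7 of 10 tested called lower and 3 higher: Cacna1e (-2.10), Cacna1b (-0.86) and Cacna2d3 (-2.34) were lower, while Cacna2d2 (2.23) and Cacna1a (0.30), the P/Q-type pore subunit, were higher on the log2 scale. Presynaptic adhesion genes were called lower in PV for 5 of 6, with Ptprf at -1.41. The SNARE and fusion list went both ways in PV, with 9 of 18 higher and 5 lower, and its fast calcium sensor Syt2 at 5.12, Vamp1 at 2.68 and Cplx1 at 1.85, against Cplx2 at -1.64 and Stx1a at -1.53. Of 27 other active zone and docking genes 6 were higher and 7 lower in PV, and of 10 vesicle protein genes 2 were higher and 5 lower. Homologs of the 9 genes also split: Rims4, a short RIM gene like Rims3, was higher in PV (0.72), where Rims3 was lower, and Unc13b (-0.95) and Unc13c (-1.35) were lower there like Unc13a. The median log2 fold change in PV was -0.37 for the 9 genes, -0.86 for the calcium channel subunits, -0.66 for adhesion genes and 0.20 for the SNARE list, beside 0.0079 for all genes.

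In PYC pools 9.10% of all genes tested were called higher and 7.28% lower. Of 10 calcium channel subunits 5 were called higher there and 1 lower. Of 18 SNARE and fusion genes 9 were called higher and 3 lower, with Stx1a at 1.79 and Syt2 at -1.51. Unc13b was higher in PYC (0.75) as Unc13a was, and Syde1 (-3.27), Rab3b (-3.06) and Ppfia4 (-2.30), which encodes a liprin-alpha that binds RIM and ELKS proteins, were lower. In SST pools Unc13c (3.01) and Rab3b (2.55) were higher. In VIP pools 4 of 6 adhesion genes were higher (5.50% of all genes), with Ptprd at 1.04. There 9 of 18 SNARE and fusion genes were lower (6.13% of all genes). With age, none of the genes on these 5 lists passed the adjusted test in any type, and the list medians in PYC were between -0.17 (calcium channel subunits) and 0.041 (vesicle proteins).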

How the data were processed

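The authors deposited raw counts for each Ensembl gene in 83 libraries, which were made with a low-input stranded kit for total RNA, per the labels. The submitters' processing notes name HISAT2 and GRCm38. The sources used here do not give the counting tool, its annotation or whether it used strand. Symbols (48435 of 48795 genes) and coordinates are from GENCODE M21 on GRCm38. Without molecular identifiers, counting error is only a lower limit, and p-values measure the spread between pools.

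The age tests used edgeR 4.0.16 (R 4.3.3): quasi-likelihood F-test within a type, robust, TMM, filterByExpr with a minimum count of 10, 2-sided, Benjamini-Hochberg over all genes, called at 0.05. These tests took each pool of a type as a separate mouse, because no group holds more pools than the series gives mice. The labels do not state this, and pools of a type from the same mouse would have been treated as independent. Types and the interaction used 1 fit of all 8 groups on genes of at least median abundance. Pools of different types partly share mice, which the labels do not record. SE is the absolute log2 fold change over the square root of F. Likeness used log2 CPM with a prior count of 2. The fits were run on simulated counts with known changes in the more abundant genes only, and the outcome is not given here. The abundance limit of the type fits was set because simulated counts had earlier given false calls among low-abundance genes. Alternatives included DESeq2 1.42.0 and limma-voom (limma 3.58.1). Named were all 9 genes, genes with the 3 smallest p or a call within a described list (the most marked of them in the text), and the genes most alike each member. The members and lists were chosen with earlier results of these data known, Rimbp2 in PYC among them. Outside PYC, age values are given for the lowest, the highest, Rimbp2 and any unadjusted p under 0.05.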

Additional observations from a re-analysis of the deposited data

Results flagged for a closer look

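In 6 of 36 sets of young libraries (9 genes in 4 types, 8 or 9 libraries each), 1 library stood apart from the rest by a gap test (groups of 12 were not tested). For normally distributed values chance alone gives this in about 1 of 20 sets, and that distribution was not checked for these CPM values. The 9 genes were measured in the same libraries, so the sets are not independent and 6 of 36 cannot be set against that share. Young PYC library 2 was the highest for 5 genes: Rims1 at 866 CPM (next 480.1), Bsn at 3829 CPM (next 2386), Unc13a at 1440.3 CPM (next 874), Erc1 at 170.3 CPM (next 108) and Erc2 at 1049.6 CPM (next 535). This library had 0.215% mitochondrial counts and a total of 3.33 M counts. Young SST library 6, the deepest of the series with 27.2 M counts and 2.14% mitochondrial counts, was the highest for Rimbp2 at 463 CPM (next 268). The part of the mitochondrial share in these values was not tested.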

How the results depend on the processing

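No paired analysis was possible because library numbers follow the order of the samples and the labels tie no library to a mouse. The number of the 9 genes called by age stayed at 0 under every setting tried except without a filter on low counts, where PYC had 3 (Rimbp2, Unc13a and Erc2); in that setting 6505 of 31951 genes were called in PYC, and 5734 to 7117 in the other types. The count of 8 in PV was 3 in young libraries alone, where 1043 of 7739 genes were called. The count of 4 in SST was 2 in old libraries alone (416 of 7351 genes called) and 1 in young ones (227 of 7739). That of 3 in VIP was 1 in old libraries alone (540 of 7351 genes) and 1 in young ones (495 of 7739). It was 5 without the libraries with few mitochondrial counts (990 of 9778). These subsets hold fewer libraries. The cause of the 5 in VIP was not tested. The count of 25 pairwise calls, which was not taken in old or young libraries alone, stayed within 1.5 times under the settings tried for it. Leaving out the 2 old VIP libraries with high SST markers (chosen after seeing the data) gave 5 in PYC, 8 in PV, 4 in SST, 2 in VIP and 26 pairwise calls. There 1546 genes were called in PYC, 2134 in PV, 706 in SST and 1102 in VIP, of 9541 tested. For the pairs the share of all genes was not counted in this setting. Leaving out single libraries (chosen after seeing the data for the type fits) gave 4 to 5 calls in PYC, 8 in PV, 3 to 5 in SST, 2 to 3 in VIP and 0 for age. The share of all genes called was not counted in the type fits with single libraries left out. Bsn in VIP (-0.17) was lost in 71 of 83 such fits.

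Age values outside PYC that are not reported above also changed sign and are not listed. Of the reported values, some changed sign under another setting, and none of those passed the test. For age these were Bsn in PYC with limma-voom (0.049), with the F number in the library titles as a term (0.049) and without the libraries with few mitochondrial counts (0.039); Pclo with limma-voom (0.091) and Erc1 with the F number (0.14) in PYC; and Rims1 with the F number in PV (-0.051). Rimbp2 in SST was 0.019 with RLE size factors, 0.018 with DESeq2, 0.16 with the F number and 0.14 without those libraries, and in VIP 0.029 with limma-voom, 0.071 with the F number and 0.21 without them. Rims3 in VIP was -0.0071 with RLE, -0.0074 with DESeq2, -0.10 with limma-voom, -0.11 with the F number and -0.023 without them. For type, in young libraries alone, Erc1 in PYC was 0.026, and in SST Erc1 was -0.055 and Erc2 -0.13. Rims1 in VIP was 0.055 with RLE, 0.0077 without a filter, 0.055 with DESeq2, 0.066 in young libraries and 0.0079 with the library total as covariate. When single libraries were left out, age values ran between -0.14 and 0.11 (Rims2), -0.12 and 0.042 (Bsn) and -0.097 and 0.037 (Pclo) in PYC, -0.0076 and 0.11 (Rims1) in PV, -0.12 and 0.14 (Rimbp2) in SST, and -0.24 and 0.041 (Rimbp2) and -0.049 and 0.11 (Rims3) in VIP. Type values ran between -0.085 and 0.021 (Erc1 in PYC) and -0.081 and 0.087 (Rims1 in VIP). The lowest count was 69, and without molecular identifiers it gives only a lower limit of counting error. The share of counting error in the spread between libraries was not tested.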
